A study of Mus musculus with 2 samples.

Results

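The 9 genes described here encode the VEGF and angiopoietin system: the ligands *Vegfa*, *Vegfb* and *Pgf*, the receptors *Kdr* and *Flt1*, the co-receptor *Nrp1*, the ligand *Angpt2* and the receptors *Tek* and *Tie1*. They were taken by symbol from the 32589 genes of the count tables, and all 9 were found. scRNA-Seq was carried out on tumor-bearing livers of mice with cholangiocarcinoma (CCA), with 1 library of mice given PBS and 1 library of mice given an anti–PD-1 antibody, and the comparison asks how the tumor and its microenvironment differ under the antibody. In both groups CCA had been started by hydrodynamic tail vein injection of plasmids for activated Notch (NICD) and myristoylated AKT. Both groups also carried shYT, doxycycline-inducible shRNAs against *Yap1* and *Wwtr1* (TAZ) whose inducer is driven in the whole body by the *CAG* promoter, so the effect of losing YAP/TAZ has no comparison here. The shRNAs were on from day 25, the antibody (clone RMP1-14) was given on days 26, 29 and 32, with the liver collected on day 33. Age, sex, the number of animals and the shRNA line are not in the labels. With 1 library per group there is no replicate and no test: all intervals are exact 95% intervals that cover counting error only, and a difference between the libraries cannot be told apart from a difference between the animals in them.

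VEGF-A, VEGF-B and placental growth factor are secreted proteins that act on vessels. VEGFR2 (*Kdr*) carries most of the growth signal of VEGF-A in endothelial cells, VEGFR1 (*Flt1*) binds all of these ligands and also acts as a decoy, and neuropilin-1 (*Nrp1*) is a co-receptor that is also found on myeloid cells, plasmacytoid dendritic cells and regulatory T cells. Angiopoietin-2, made mainly by endothelial cells, modulates the receptor TIE2 (*Tek*), and TIE1 is the partner of TIE2. The liver holds sinusoidal endothelial cells (LSECs), which are fenestrated, beside the continuous endothelium of larger vessels and lymphatics. VEGF-A is known to rise under hypoxia and in activated macrophages, and vessel growth is a common target in liver cancer.

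A UMI (unique molecular identifier) stands for 1 captured transcript. Kept were cells in which 500 to 5000 genes were detected, with mitochondrial genes taking 10% of UMIs or less, 15531 of 19397 barcodes under PBS and 16360 of 19451 under anti–PD-1. The median depth was 3159 and 2990 UMIs per kept cell. Cells were put in classes by marker genes, each class name standing for cells that resemble the type, and 12 classes with at least 50 cells in each library were used. The defining endothelial markers outside the gate (*Pecam1*, *Esam*, *Emcn*, *Ecscr*, *Stab2*, *Clec4g*) were highest in the endothelial class for 6 of 6 genes in both libraries, and those of the tumor/biliary class and of cancer-associated fibroblasts (CAFs) for 5 of 5 and 4 of 4. Of the monocyte/macrophage check markers 2 of 5 were highest in that class, while *C1qb* was higher in Kupffer cells, *Ly6c2* in pDCs (plasmacytoid dendritic cells) and *Ccr2*, under anti–PD-1, in NK cells. The libraries differed in the sex of their cells. *Xist*, expressed from the inactive X of females, had 18452 UMIs under PBS and 11 under anti–PD-1, while 4 Y-linked genes had 3113 and 15323. The groups thus cannot be told apart from the sex of the cells, and where they were enough, cells with Y-linked UMIs but none of *Xist* (Y-linked cells) were compared on their own. In the tumor/biliary class the targeted genes had 49 and 19 UMIs for *Yap1* and 62 and 15 for *Wwtr1*, log2 ratios of 0.02 (-0.51 to 0.55) and -0.43 (-0.96 to 0.12).

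The members lie on 6 chromosomes of the mouse genome (GRCm38, the mm10 build). *Vegfa* is at chr17:46016993-46032369, *Vegfb* at chr19:6982473-6987651 and *Pgf* at chr12:85166635-85177790, all on the minus strand. *Kdr* (chr5:75932827-75978458) and *Flt1* (chr5:147561604-147726011) are both on the minus strand of chromosome 5. *Nrp1* (chr8:128358604-128503363, plus strand) and *Angpt2* (chr8:18690263-18741562, minus strand) share chromosome 8. *Tek* (chr4:94739289-94874976, plus strand) and *Tie1* (chr4:118471191-118490061, minus strand) share chromosome 4. The UMIs were counted per gene, so no exon or UTR can be told apart.

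The promoters of 8 members are in the RefSeq table of GRCm38.p6 promoters (250 bases before to 50 after the start site). Those of 4 members are shown because they stand for the main patterns below: the ligand with the largest rise, both VEGF receptors and a TIE receptor that is nearly restricted to the endothelial class. Capitals mark the hypoxia response core (ACGTG or GCGTG) and the ETS motif AGGAAG, the ETS factors being a family of endothelial regulators, each searched on both strands. The windows are *Vegfa* chr17:46032328-46032627, *Kdr* chr5:75978406-75978705, *Flt1* chr5:147725962-147726261 and *Tie1* chr4:118489800-118490099, all on the minus strand.
Vegfa: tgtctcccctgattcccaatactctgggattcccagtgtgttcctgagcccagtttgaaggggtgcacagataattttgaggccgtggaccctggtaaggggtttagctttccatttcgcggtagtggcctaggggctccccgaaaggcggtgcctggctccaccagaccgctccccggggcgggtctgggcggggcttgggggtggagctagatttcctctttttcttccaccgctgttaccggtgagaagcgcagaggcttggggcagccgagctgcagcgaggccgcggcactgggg
Kdr: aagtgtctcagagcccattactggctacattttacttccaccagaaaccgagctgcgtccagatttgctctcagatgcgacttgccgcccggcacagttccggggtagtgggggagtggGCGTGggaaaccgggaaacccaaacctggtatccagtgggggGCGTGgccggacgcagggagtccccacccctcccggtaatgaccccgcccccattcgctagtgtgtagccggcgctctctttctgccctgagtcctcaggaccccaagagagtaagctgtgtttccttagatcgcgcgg
Flt1: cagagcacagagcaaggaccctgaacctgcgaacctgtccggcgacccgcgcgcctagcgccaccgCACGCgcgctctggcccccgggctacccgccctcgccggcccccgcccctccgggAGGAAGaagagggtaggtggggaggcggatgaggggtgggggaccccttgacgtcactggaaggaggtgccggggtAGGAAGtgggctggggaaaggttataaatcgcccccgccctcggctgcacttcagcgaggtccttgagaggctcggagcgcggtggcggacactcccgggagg
Tie1: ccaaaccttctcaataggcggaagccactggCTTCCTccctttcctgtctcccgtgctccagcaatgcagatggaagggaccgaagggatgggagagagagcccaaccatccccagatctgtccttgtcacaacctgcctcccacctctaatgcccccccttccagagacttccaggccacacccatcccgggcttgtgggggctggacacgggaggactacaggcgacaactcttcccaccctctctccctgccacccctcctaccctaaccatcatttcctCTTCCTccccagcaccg
The *Vegfa* window held none of these motifs, and an internal *Vegfa* start site in the table (chr17:46025114-46025413, minus strand) held the hypoxia core 2 times. The core occurred 2 times in *Kdr* and 1 time in *Flt1*, and the ETS motif 2 times in *Flt1* and 2 times in *Tie1*. The hypoxia core was found 2 times in *Vegfb*, 1 time in 1 of 2 *Pgf* windows (chr12:85177264-85177563, minus strand) and 1 time in *Nrp1*, whose window also held 1 ETS motif, and the other *Pgf* window and *Tek* held none. Of all 32851 promoter windows 43.8% held the hypoxia core and 35.4% the ETS motif, so a match is a description of the window and not a site. AP-1 (TGANTCA, in 7.81% of windows), TEAD (GGAATG, 14.7%) and the interferon-γ motif GAS (TTCNNNGAA, 8.30%) were in none of the 10 windows of members, which says only that these letters are not there.

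Levels below are UMIs of a gene over all UMIs of the class and library, scaled to 1000000 (CPM). They are not divided by gene length, so levels are compared between classes and libraries for 1 gene and never between genes. Log2 ratios are of (CPM + 5), anti–PD-1 over PBS, and understate changes of low genes. A gene counts as measured in a class with at least 20 UMIs over both libraries, and as higher or lower when the ratio is at least 2-fold. The members and the background moved as follows. In the endothelial class 1 of 9 members was higher (*Vegfa*) and 2 were lower (*Pgf*, *Angpt2*), where 3.16% of all measured genes were higher and 4.2% lower. In tumor/biliary cells 0 of 7 were higher and 3 lower (*Pgf*, *Flt1*, *Nrp1*), against 2.91% and 2.24% of all genes. In CAFs 1 of 8 was higher (*Tek*) and 0 lower, against 3.14% and 2.98%. None of the 8 members measured in T cells passed 2-fold in either direction, against 1.21% of genes higher and 0.964% lower. *Vegfa* was the 1 member of 4 that was higher in NK cells, with 0 lower (background 2.42% and 2.58%). In B cells *Vegfa* was higher and *Flt1* lower, of 5 measured (1.77% and 1.86%). In plasma cells 0 of 4 were higher and *Flt1* was lower (3.17% and 4.88%), and in neutrophils 0 of 5 were higher and *Flt1* was lower (2.1% and 4.49%). Of 9 members in monocytes/macrophages 1 was higher, *Vegfa*, and 0 were lower, against 2.33% and 0.441% of genes. *Vegfa* was again the 1 member higher of 6 in Kupffer cells (1.73% of genes higher, 0.222% lower) and of 3 in dendritic cells (2.45% and 3.64%), with 0 lower in either. In pDCs 0 of 3 were higher and *Kdr* was lower (4.67% and 6.68%). Over all kept cells *Vegfa* was higher and *Kdr*, *Flt1*, *Tek* and *Tie1* were lower, against 1.62% and 1.95% of genes. *Pgf* was just short of 2-fold there, with 597 and 111 UMIs (-0.96, -1.05 to -0.88). Its ratio PBS over anti–PD-1 with no pseudocount was 5.28 (4.31 to 6.53). The median log2 ratio of all measured genes was between -0.27 (neutrophils) and -0.01 (CAFs and plasma cells), and for the members it was -0.33 in the endothelial class, -0.66 in tumor/biliary cells, -0.20 in CAFs and -0.23 in monocytes/macrophages.

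**Figure D1:**
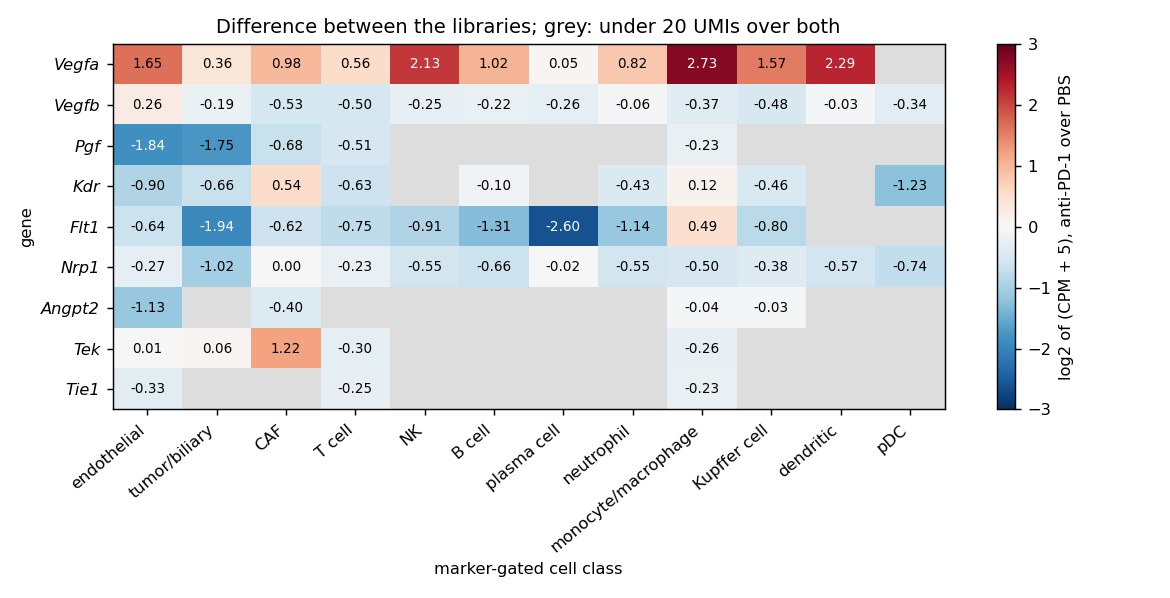
Log2 ratio of (CPM + 5), anti–PD-1 over PBS, for each member (rows) in each cell class (columns), with the value written in the cell. *Vegfa* is above 0 in the classes where it was measured, up to 2.73 in monocytes/macrophages, while *Flt1* is below 0 in 9 of its 10 measured classes.

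Among the ligands, *Vegfa* was higher after anti–PD-1. Its ratio was above 0 in all 11 classes where it was measured, from 0.05 in plasma cells to 2.73 in monocytes/macrophages, the interval lay above 0 in 10 of them, and 6 passed 2-fold. Over all kept cells *Vegfa* had 1529 UMIs (19.3 CPM) under PBS and 4145 (53.4 CPM) under anti–PD-1, giving a log2 ratio of 1.26 (1.19 to 1.33). The plasma cell value, of 22 and 18 UMIs, ran from -0.76 with cells of a second class left out to 1.07 with the stricter gate, and was 1.06 without the upper limit on genes. Without the upper limit of 5000 genes the ratio over all cells was 0.90, under 2-fold.

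Monocytes/macrophages had 475 UMIs and 15.4 CPM (14.0 to 16.8) under PBS. In the anti–PD-1 library there were 1486 UMIs and 130 CPM (124 to 137), giving a log2 ratio of 2.73 (2.61 to 2.85). The intervals of the libraries did not overlap. This was the highest ratio of the 11 classes on the log2(CPM + 5) scale, but with a pseudocount of 1 CPM dendritic cells, with 5 and 43 UMIs, were above it (3.16, 2.05 to 4.24, against 3.00). The ratio was similar in cells with a *C1qb* or *C1qc* UMI, complement genes of macrophages, at 15.4 and 131 CPM (log2 2.74, 2.62 to 2.86). Cells with *Ly6c2* or *Ccr2*, monocyte genes, and no C1q UMI were few, 91 and 32, and had 17.9 and 155 CPM (2.81, 1.77 to 3.82). The difference in sex moved little with this value: under PBS *Vegfa* was at 15.2 CPM in macrophages with *Xist* and 18.1 CPM in those with Y-linked UMIs, and between Y-linked cells of both libraries the log2 ratio was 2.72 (2.42 to 3.02).

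The *Vegfa* UMIs lay in a minority of the cells. In the PBS library 43 of 3758 monocytes/macrophages (1.14%) had 3 or more UMIs and held 39.6% of the class total. In the anti–PD-1 library 156 of 1639 (9.52%) did, and held 79.7%. Thus cells with 3 or more UMIs were a larger share of the class and held a larger share of its *Vegfa*. After each cell was thinned to 1000 UMIs, leaving out 87 and 175 shallower cells, 1.36% and 7.99% of the cells had a *Vegfa* UMI, and without thinning 7.42% and 23.2% (median depth 7561 and 6189 UMIs per cell). T cells, set beside them, gave thinned shares of 0.671% and 0.866% at median depths of 2736 and 3576 UMIs. Their own *Vegfa* ratio was above 0 (0.56, 0.32 to 0.79), so these shares are not a background free of the gene.

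**Figure D2:**
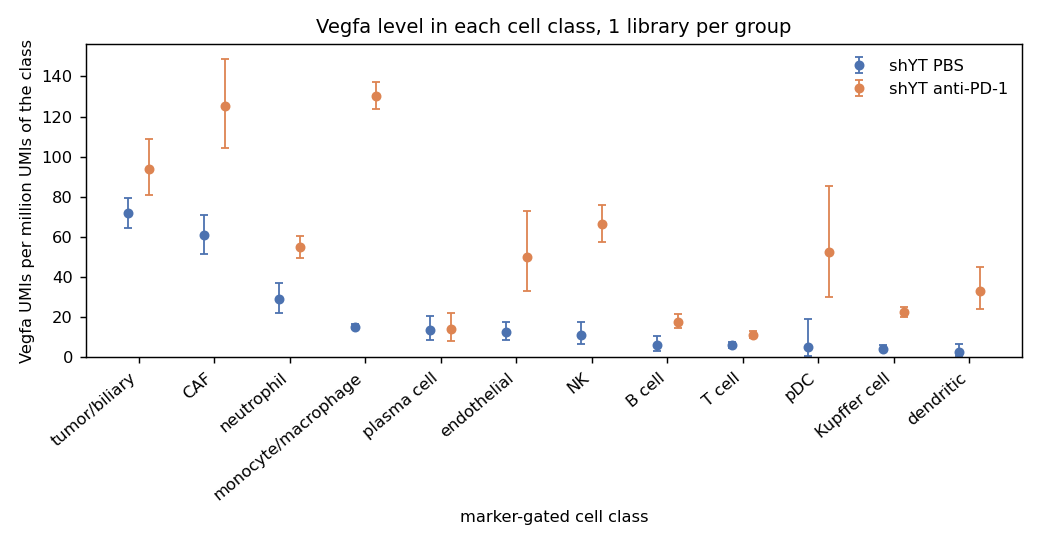
*Vegfa* in CPM of each cell class, with exact 95% Poisson intervals, for the PBS and the anti–PD-1 library. Tumor/biliary cells (71.9) led under PBS and monocytes/macrophages (130) under anti–PD-1, followed by CAFs (125).

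The order of the classes changed between the libraries. In the PBS library *Vegfa* was highest in tumor/biliary cells (71.9 CPM) and CAFs (60.8), whose intervals overlapped, then in neutrophils (29.0) and in monocytes/macrophages (15.4). From the latter down to dendritic cells (2.85) neighbours in the order overlapped. In the anti–PD-1 library monocytes/macrophages (130), CAFs (125) and tumor/biliary cells (94.0) came first, each overlapping its neighbour. NK cells (66.3), neutrophils (54.9), pDCs (52.5), endothelial cells (50.1) and dendritic cells (33.3) followed, again each overlapping the next. T cells were lowest, at 11.4 CPM.

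NK cells, cytotoxic lymphocytes, had 18 *Vegfa* UMIs (11.3 CPM) under PBS and 201 (66.3 CPM) under anti–PD-1, giving a log2 ratio of 2.13 (1.61 to 2.65). In the PBS library 0 of 544 NK cells had 3 or more UMIs, and under anti–PD-1 27 of 779 did. The level in NK cells was 73.2% and 50.9% of the level in monocytes/macrophages, while the summed markers of monocytes/macrophages were at 4.89% and 5.29% of theirs. Kupffer cells, the resident macrophages of the liver, rose from 36 to 367 UMIs, 4.32 and 22.7 CPM (log2 1.57, 1.30 to 1.81), an anti–PD-1 interval (20.4 to 25.1) that overlaps that of dendritic cells (24.1 to 44.9). Dendritic cells had 5 and 43 UMIs (2.85 and 33.3 CPM, 2.29, 1.59 to 2.78).

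In endothelial cells themselves *Vegfa* had 34 UMIs (12.6 CPM) and 27 UMIs (50.1 CPM), giving a log2 ratio of 1.65 (0.99 to 2.26). Of the 27 UMIs 13 (48.1%) were in 1 of 106 cells, and with the cell that had the most *Vegfa* UMIs left out of each library the ratio was 1.02 (0.22 to 1.78). With a stricter gate it was 0.81 (-0.08 to 1.64), under 2-fold. CAFs had 155 and 127 UMIs (60.8 and 125 CPM, 0.98, 0.65 to 1.31), just under the line, and 0.40 (-0.26 to 1.02) when cells with markers of a second class were left out. Tumor/biliary cells had 365 and 182 UMIs, 71.9 and 94.0 CPM (0.36, 0.11 to 0.61). The share of these cells with a *Vegfa* UMI was not higher. It was 7.37% (5.65 to 9.40) and 5.63% (3.56 to 8.40) thinned, and 24.7% and 20.3% unthinned. Those with 3 or more UMIs were 4.04% and 4.22%. Neutrophils had 65 and 399 (29.0 and 54.9 CPM, 0.82, 0.48 to 1.16) and B cells 14 and 101 (6.31 and 17.9 CPM, 1.02, 0.50 to 1.49), a call in B cells that was lost under 3 alternatives (0.67 to 0.98). Between Y-linked neutrophils the ratio was 1.90, and with median-ratio scaling 1.16 in neutrophils. In T cells the levels were 6.13 and 11.4 CPM (0.56, 0.32 to 0.79), and in plasma cells 13.5 and 14.1 CPM, whose intervals overlapped. Cells in no class had 252 and 970 UMIs (33.8 and 93.6 CPM).

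Lists of other genes moved beside *Vegfa*. Of 15 early response and heat shock genes, which rise in stressed and in activated cells and during tissue dissociation, 10 were higher in monocytes/macrophages (median log2 1.45), 10 in Kupffer cells (1.27), 12 in endothelial cells (1.73), 13 in tumor/biliary cells (1.93), 13 in CAFs (2.16), 6 in NK cells (0.78), 6 in T cells (0.68) and 10 in plasma cells (1.37). B cells had 4 (0.67), dendritic cells 8 (1.01), neutrophils 4 with 2 lower (0.50) and pDCs 4 of 14 (0.83). Hypoxia-inducible factor (HIF) targets, genes of glycolysis and oxygen sensing, moved little: 0 of 17 passed 2-fold in monocytes/macrophages in either direction (median 0.14), and medians were between -0.20 in neutrophils and 0.33 in Kupffer and dendritic cells. In endothelial cells, CAFs, dendritic cells and pDCs 1 HIF target each was higher, and in tumor/biliary cells, NK cells and neutrophils 1 each was lower. The part of either list in the *Vegfa* values was not tested.

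*Vegfb*, a ligand of FLT1, did not pass 2-fold in any of the 12 classes at the main settings. Its ratios ran from -0.53 in CAFs to 0.26 in endothelial cells, and the interval was below 0 in 4 classes. Monocytes/macrophages had 1056 and 288 UMIs, 34.2 and 25.3 CPM (-0.37, -0.54 to -0.21). In T cells there were 256 and 233 UMIs (21.8 and 13.9 CPM, -0.50), in Kupffer cells 199 and 255 (23.9 and 15.7 CPM, -0.48) and in CAFs 125 and 33 (49.0 and 32.5 CPM, -0.53). Endothelial cells had 90 and 22 UMIs (33.3 and 40.8 CPM, 0.26, -0.39 to 0.87). Over the alternatives run *Vegfb* was between -0.70 and -0.22 in monocytes/macrophages and between -0.76 and 0.10 in tumor/biliary cells. In plasma cells, with 20 and 12 UMIs, it was between -1.08, past 2-fold, and -0.13. Sex moved with *Vegfb* in part of the classes. Under PBS monocytes/macrophages had 34.9 CPM with *Xist* and 48.4 CPM with Y-linked UMIs (0.42, 0.19 to 0.64). Tumor/biliary cells had 24.8 and 46.3 CPM (0.78, 0.12 to 1.41) and CAFs 39.3 and 82.6 CPM (0.98, 0.26 to 1.67). In the other classes split by sex the interval held 0. The levels of the classes were close together: apart from neutrophils, lowest in both libraries (6.25 and 5.78 CPM), they spanned 12.3 to 49.0 CPM under PBS and 9.43 to 40.8 CPM under anti–PD-1, and all neighbours overlapped. Thus *Vegfa* and *Vegfb* differed in direction in the myeloid classes that hold many UMIs of both.

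*Pgf*, placental growth factor, was highest in CAFs in both libraries. CAFs had 112 UMIs (43.9 CPM, 36.2 to 52.8) and 26 UMIs (25.6 CPM, 16.7 to 37.5), giving a log2 ratio of -0.68 (-1.23 to -0.13). Over the alternatives run the ratio was between -1.77 and -0.67. Of the 112 UMIs 45 were in 9 of 517 cells, and of the 26 UMIs 14 were in 3 of 210. Tumor/biliary cells came second, with 122 UMIs (24.0 CPM, 19.96 to 28.7) under PBS and 7 UMIs (3.61 CPM, 1.45 to 7.45) under anti–PD-1, giving a log2 ratio of -1.75 (-2.21 to -1.18). The fall in tumor cells was spread over cells, since 82 of 866 had a UMI under PBS and the most in 1 cell was 5, while 0.890% and 0.239% of T cells had one (median depth 2736 and 3576 UMIs, tumor/biliary 3291 and 1844). Between Y-linked tumor/biliary cells there were 7 and 6 UMIs (14.7 and 5.07 CPM, -0.97, -1.93 to 0.15), so a difference was not detectable at this depth within 1 sex, and under PBS those with *Xist* had 27.7 CPM. Endothelial cells had 35 UMIs (13.0 CPM) and 0 UMIs, at least 2.33-fold lower against the floor of 3 counts per library, with an exact 95% limit of 1.797-fold, under 2-fold. Without the upper limit of 5000 genes, however, endothelial *Pgf* had a log2 ratio of -0.18 (-0.96 to 0.59), so that this fall rests on the limit. Of the PBS UMIs in endothelial cells 24 were in 149 cells gated as continuous endothelium. In T cells there were 35 and 10 UMIs, and in monocytes/macrophages 71 and 14, levels of at most 2.98 CPM.

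The receptor *Kdr* was nearly restricted to the endothelial class. There it had 2638 UMIs and 977 CPM (940 to 1015) under PBS, and 282 UMIs and 523 CPM (464 to 588) under anti–PD-1. That is a log2 ratio of -0.90 (-1.08 to -0.72), short of 2-fold with intervals that did not overlap. The next class was pDCs, with 17 and 5 UMIs (45.2 and 16.4 CPM). Their ratio of -1.23 passed 2-fold, yet its interval reached 0.03, and with a stricter gate it was -0.91. All other named classes were at 10.8 CPM or less.

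Over all kept cells *Kdr* went from 3093 to 580 UMIs, 39.1 to 7.47 CPM (-1.82, -1.91 to -1.74). This larger fall came with fewer cells in the endothelial gate: 538 of 15531 (3.46%, 3.18 to 3.76) under PBS and 106 of 16360 (0.648%, 0.531 to 0.783) under anti–PD-1, 5.35-fold lower. In a sum over all cells, fewer cells of a type and less RNA per cell cannot be told apart, and how many endothelial cells the digestion released was not measured here. The endothelial class held 85.3% of all *Kdr* UMIs under PBS and 48.6% under anti–PD-1. Cells in no class held 3.88% and 18.3%.

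The ratio of *Kdr* was below 0 in both endothelial gates and past 2-fold in the continuous one. LSEC-gated cells (318 and 50) had 1197 and 790 CPM (-0.60, -0.81 to -0.39), and continuous-gated cells (149 and 33) had 700 and 264 CPM (-1.39, -1.86 to -0.95). Thinned to 1000 UMIs, 58.3% (53.8 to 62.6) of endothelial cells under PBS and 37.9% (28.1 to 48.4) under anti–PD-1 had a *Kdr* UMI. Unthinned shares were 81.6% and 62.3% (median depth 4118 and 2987 UMIs), and the T-cell background was 0.467% and 0.108% thinned. Endothelial cells with Y-linked and no *Xist* UMIs, 34 and 45, had 816 and 532 CPM (-0.61, -0.92 to -0.30), and under PBS those with *Xist* had 909 CPM.

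The endothelial markers had ratios below 0 as well, under 2-fold as a sum. The summed level of the 12 markers of the gate and its check was 9548 CPM in the endothelial class of the PBS library and 7215 CPM in that of the anti–PD-1 library (-0.40, -0.45 to -0.36), none of them at 0. That interval does not overlap the one of *Kdr* (-1.08 to -0.72). *Emcn*, a sialomucin of endothelial cells, fell the most of the 12. It had 449.6 and 247 CPM (-0.85, -1.12 to -0.60), an interval that does overlap that of *Kdr*. *Ecscr* fell the least, at 424 and 395 CPM. LSEC genes had a median log2 ratio of -0.57 over 8 of 8 measured, with 0 past 2-fold. Among them were *Stab2*, a scavenger receptor, at 568 and 360 CPM (-0.65), and *Clec4g*, a lectin, at 1528 and 1038 CPM (-0.55). Genes of continuous endothelium had a median of -0.09 over 6 of 6, with 0 past 2-fold. The part of the LSEC genes, and of the markers, in the *Kdr* value was not tested.

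**Figure D3:**
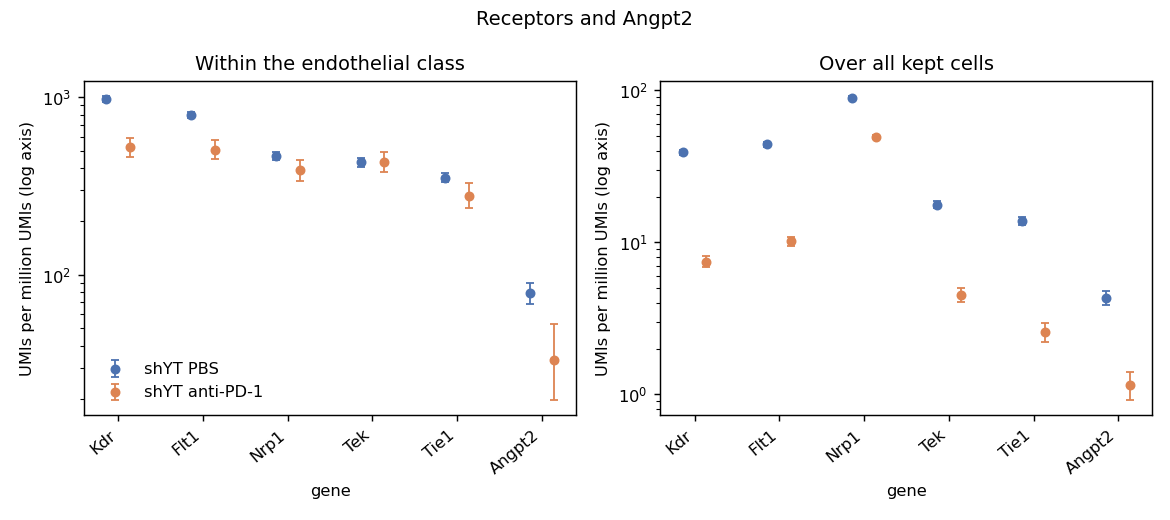
*Kdr*, *Flt1*, *Nrp1*, *Tek*, *Tie1* and *Angpt2* in CPM with exact 95% intervals, within the endothelial class and over all kept cells, on log axes. All 6 are lower over all cells under anti–PD-1, and within the endothelial class *Tek* (431 and 434 CPM) is level.

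*Flt1* was also highest in endothelial cells, with 2144 UMIs and 794 CPM (761 to 828) under PBS, and 274 UMIs and 508 CPM (450 to 572) under anti–PD-1. That is a log2 ratio of -0.64 (-0.82 to -0.46), and the intervals did not overlap. LSEC-gated cells had 640 and 488 CPM (-0.39) and continuous-gated cells 1132 and 614 CPM (-0.88). Under PBS the gates were ordered differently for *Kdr*, with more in LSEC-gated cells, and *Flt1*, with more in continuous-gated cells. Under anti–PD-1 the *Flt1* intervals of the gates overlapped (406 to 583 and 499 to 746 CPM).

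In tumor/biliary cells *Flt1* differed more. Under PBS they were second to endothelial cells, with an interval that overlapped that of CAFs (48.3 to 67.3 CPM). The PBS library had 353 UMIs and 69.6 CPM (62.5 to 77.2), and the anti–PD-1 library had 28 UMIs and 14.5 CPM (9.61 to 20.9). That is a log2 ratio of -1.94 (-2.38 to -1.50). In the PBS library 36 of 866 tumor/biliary cells had 3 or more *Flt1* UMIs and held 74.8% of the total, and under anti–PD-1 1 of 474 did. These 36 cells were deep, with a median of 15620 UMIs against 2909 in the 758 cells with no *Flt1* UMI.

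The endothelial markers were also summed in the tumor/biliary cells with *Flt1*, in a class whose gate itself keeps endothelial gate markers few. The 12 markers were at 168 CPM (135 to 208) in the 36 cells, above the 122 CPM (111 to 133) of cells with no *Flt1* UMI. The 36 cells, chosen for their *Flt1* UMIs, had *Flt1* at 511 CPM and 1 *Kdr* UMI. *Tie1* and *Angpt2* had 0 UMIs there, which allows up to 3 UMIs. The 11 tumor/biliary markers summed to 36695 CPM against 38039. Over the whole class the *Flt1* level was 8.76% of that of endothelial cells under PBS while the endothelial markers were at 1.36% of theirs, and 2.85% against 1.65% under anti–PD-1. *Vegfc*, a ligand of lymphatic vessels, was at 81.3 CPM in the 36 cells and 15.6 CPM in those with no *Flt1* UMI, and *Esm1*, an endothelial gene outside the marker list, at 94.9 and 44.3 CPM. The sex of the cells moved with *Flt1*: under PBS tumor/biliary cells with *Xist* had 83.2 CPM (258 UMIs in 369 cells) and those with Y-linked UMIs 27.4 CPM (13 UMIs in 56 cells). Between Y-linked cells the ratio of the libraries was -0.62 (-1.49 to 0.29), with 27.4 and 16.0 CPM, so the fall was not detectable at this depth within cells of 1 sex.

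Beside tumor/biliary cells *Flt1* passed 2-fold in B cells, plasma cells and neutrophils, all lower, and in none was it higher. Monocytes/macrophages, where FLT1 is known as a receptor for migration, had 259 and 157 UMIs, 8.39 CPM (7.40 to 9.48) and 13.8 CPM (11.7 to 16.1), giving a log2 ratio of 0.49 (0.28 to 0.69). Between Y-linked monocytes/macrophages it was 0.47 (0.07 to 0.86). CAFs had 146 and 36 UMIs (57.2 and 35.4 CPM, -0.62, -1.12 to -0.14). Neutrophils had 59 and 67 UMIs (26.3 and 9.23 CPM, -1.14) and B cells 30 and 14 (13.5 and 2.48 CPM, -1.31). Both fell under 2-fold elsewhere: neutrophils were at -0.89 with median-ratio scaling, and B cells at -0.96 with second-class cells left out and -0.82 in Y-linked cells. In plasma cells 49 UMIs faced 1, a ratio PBS over anti–PD-1 of 38.3 (6.57 to 1545), but 38 of the 49 were in 1 cell, and the log2 ratio was -0.11 with the stricter gate. T cells had 7.07 and 2.15 CPM (-0.75), which was 0.890% and 0.424% of the endothelial level, beside 0.867% and 0.837% for the endothelial markers.

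The co-receptor *Nrp1* had 7059 and 3836 UMIs, the most of any member under PBS, and was spread over more classes than the receptors. Endothelial cells led with 469 CPM (443 to 495) and 388 CPM (337 to 444), from 1266 and 209 UMIs (-0.27, -0.49 to -0.06). CAFs followed with 327 and 130 UMIs, 128 and 128 CPM, and their ratio was 0.00 (-0.29 to 0.28). Monocytes/macrophages came next, at 102 CPM (98.2 to 105) and 70.6 CPM (65.8 to 75.7) from 3139 and 805 UMIs (-0.50, -0.60 to -0.39). These 3 classes differed from each other beyond their intervals in both libraries.

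Kupffer cells (611 and 898 UMIs, 73.4 and 55.4 CPM, -0.38), T cells (845 and 1011 UMIs, 71.96 and 60.4 CPM, -0.23) and pDCs (26 and 12 UMIs, 69.1 and 39.4 CPM) formed a middle group whose neighbours overlapped. Among T cells *Nrp1* depended on the subset. Cells with a UMI of *Foxp3*, the regulator of regulatory T cells, numbered 249 and 243 and had 136 and 159 CPM (0.22, -0.08 to 0.53). Cells with *Cd4* and no *Foxp3* UMI had 126 and 87.1 CPM (-0.51, -0.73 to -0.29), and those with a UMI of *Cd8a* or *Cd8b1* 42.1 and 41.0 CPM (-0.04, -0.29 to 0.22). Among these subsets the interval was below 0 for *Cd4* cells without *Foxp3* UMIs. With median-ratio scaling the ratio over all T cells was -0.03. Tumor/biliary cells had 63 and 7 UMIs (12.4 and 3.61 CPM, -1.02, -1.49 to -0.42), a call that 4 alternatives took below 2-fold.

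The share of *Nrp1* UMIs moved with the makeup of the libraries. Monocytes/macrophages held 44.5% under PBS and 21.0% under anti–PD-1, while Kupffer cells went from 8.66% to 23.4% and T cells from 11.97% to 26.4%. Their cells numbered 3758 and 1639, 871 and 1536, and 3483 and 3765.

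**Figure D4:**
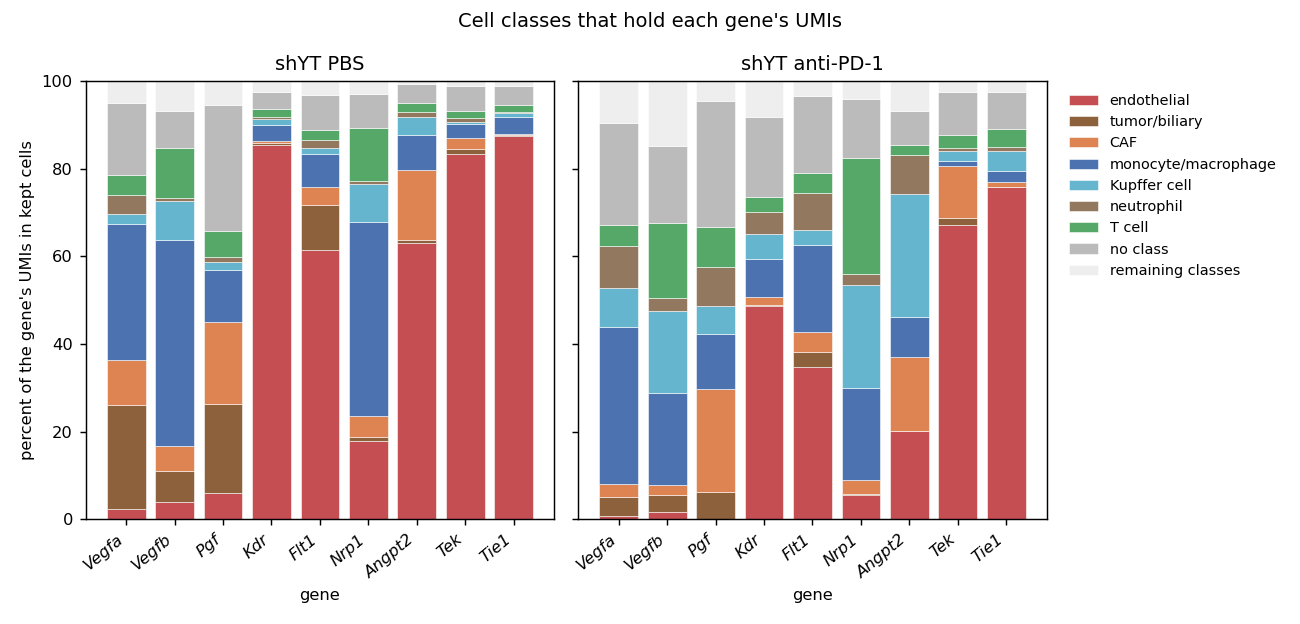
Percent of each member's UMIs held by each cell class in the PBS and the anti–PD-1 library. The endothelial class holds 85.3% of *Kdr* UMIs under PBS and 48.6% under anti–PD-1, and monocytes/macrophages hold 31.1% and 35.9% of *Vegfa*.

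*Angpt2*, the TIE2 ligand of activated vessels, was lower in endothelial cells. They had 214 UMIs (79.3 CPM, 69.0 to 90.6) under PBS and 18 UMIs (33.4 CPM, 19.8 to 52.7) under anti–PD-1, giving a log2 ratio of -1.13 (-1.79 to -0.51). In the PBS library 24 of 538 endothelial cells had 3 or more UMIs and held 79.9% of the total, and the most in 1 cell was 36. Shares of cells were closer than levels: thinned, 3.98% (2.45 to 6.07) and 5.26% (1.73 to 11.9) of endothelial cells had a UMI, and 0.0876% of T cells under PBS. The ratio was -0.76 with cells of up to 20% mitochondrial UMIs and -0.94 without the upper limit of 5000 genes, both under 2-fold. Sex also moved with it: under PBS endothelial cells with *Xist* had 143 UMIs (92.9 CPM) and those with Y-linked UMIs 1 (5.07 CPM), while Y-linked endothelial cells of the anti–PD-1 library had 11 UMIs (32.3 CPM), a log2 ratio of the opposite sign (1.89, -0.09 to 2.97). CAFs had 54 and 15 *Angpt2* UMIs (21.2 and 14.8 CPM, -0.40, -1.07 to 0.26).

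*Tek* was level in the endothelial class. It had 1163 UMIs (431 CPM, 406 to 456) and 234 UMIs (434 CPM, 380 to 493), giving a log2 ratio of 0.01 (-0.20 to 0.21). Sex moved with it, however. Under PBS endothelial cells with *Xist* had 393 CPM (605 UMIs in 230 cells) and those with Y-linked UMIs 527 CPM (104 UMIs in 34 cells). Their log2 ratio, Y-linked over *Xist*, was 0.42 (0.11 to 0.72), so the interval between the libraries sets no limit on a change within 1 sex. LSEC-gated cells had 443 and 468 CPM and continuous-gated cells 398 and 356 CPM. Over all kept cells *Tek* fell from 1395 to 349 UMIs, 17.6 to 4.49 CPM (-1.25), beside the smaller endothelial class, which held 83.4% and 67.0% of its UMIs. The drop over all cells thus stood beside a level value in the endothelial class as a whole, and its source was not tested.

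In CAFs *Tek* was higher. There were 37 UMIs (14.5 CPM, 10.2 to 19.99) under PBS and 41 UMIs (40.4 CPM, 29.0 to 54.8) under anti–PD-1, giving a log2 ratio of 1.22 (0.66 to 1.76). The most in 1 cell was 3 and 10, and 26 of 517 and 21 of 210 CAFs (median depth 2855 and 2118 UMIs) had a UMI, beside 0.459% and 0.159% of T cells. This was 3.37% and 9.30% of the endothelial level, while the endothelial markers in CAFs were at 2.37% and 2.96% of theirs. Other endothelial genes lay in both directions in CAFs. Of 6 genes of continuous endothelium 3 were measured and 2 were higher, *Cd34* (189 and 428 CPM, 1.16) and *Ly6c1* (64.7 and 337 CPM, 2.29), while of 4 measured LSEC genes 1 was higher and 2 were lower (median -1.08). Among the 12 endothelial markers *Ramp2* was at 31.4 and 89.6 CPM, *Esam* at 53.7 and 21.7 CPM and *Clec14a* at 12.2 and 5.91 CPM, and their sum was at 227 and 214 CPM (-0.08, -0.31 to 0.14). The markers of CAFs themselves also moved within the class. *Pdgfra* (144 and 269 CPM) and *Dcn* (5776 and 7851 CPM) were higher. The others were lower, among them *Des* (308 and 125 CPM), *Lrat* (45.1 and 14.8 CPM) and *Pdgfrb* (254 and 166 CPM). The part of all these genes, and of the makeup of the class, in the *Tek* value was not tested. With the cell that had the most *Tek* UMIs left out of each library the ratio was 0.98 (0.37 to 1.56), under 2-fold. Y-linked CAFs had 5 and 36 *Tek* UMIs (18.8 and 47.9 CPM), a ratio whose interval reached 0.

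*Tie1*, the partner of TIE2, was the member most confined to the endothelial class. It had 955 UMIs (354 CPM, 332 to 377) and 151 UMIs (280 CPM, 237 to 328), giving a log2 ratio of -0.33 (-0.58 to -0.09), close to the -0.40 of the summed endothelial markers. The class held 87.5% and 75.9% of its UMIs. All other named classes were at 2.70 CPM or less in either library. Over all kept cells it fell from 1091 to 199 UMIs (13.8 and 2.56 CPM, -1.31), and in Y-linked cells the ratio was -0.92.

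**Figure D5:**
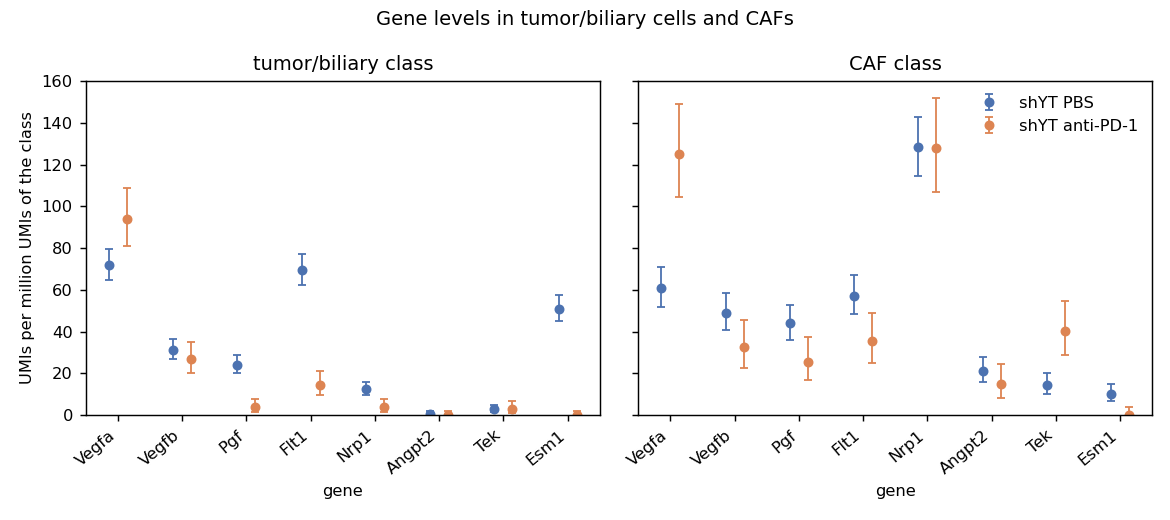
Members and *Esm1* in tumor/biliary cells and CAFs, in CPM with exact 95% Poisson intervals, for both libraries. In tumor/biliary cells *Flt1*, *Pgf* and *Esm1* are lower under anti–PD-1, and in CAFs *Tek* is higher (1.22), with *Vegfa* just short of 2-fold (0.98).

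Of 21 other genes of the pathway, 18 were measured in the endothelial class, with 1 higher, 1 lower and a median log2 ratio of -0.66, against -0.11 for all measured genes. *Angpt1*, the activating TIE2 ligand, had 3 and 17 UMIs, a ratio anti–PD-1 over PBS of 28.4 (8.21 to 151). *Apln*, the ligand apelin of sprouting vessels, had 91 and 7 UMIs (33.7 and 13.0 CPM, -1.11, -1.96 to -0.23). Between those lines were *Flt4*, the receptor of VEGF-C (361 and 191 CPM, -0.90), the Notch receptor *Notch4* (92.2 and 48.2 CPM, -0.87) and *Nos3*, endothelial nitric oxide synthase (136 and 74.2 CPM, -0.84). Tip cell genes, which mark the leading cells of sprouts, had 0 higher and 2 lower of 6 in the endothelial class (*Apln* and *Nid2*, the latter at 47.8 and 16.7 CPM). Of the lymphatic genes 1 of 5 was higher, the chemokine *Ccl21a* (497 and 1450 CPM, 1.54), and 2 were lower, *Mmrn1* (475 and 223 CPM, -1.08) and *Reln* (97.0 and 40.8 CPM, -1.16).

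In tumor/biliary cells 12 of the 21 were measured, with 0 higher and 4 lower (median -0.50, all genes -0.03). *Esm1*, an endothelial VEGF target, had 259 UMIs (51.0 CPM) and 0 UMIs, at least 32.9-fold lower against the floor of 3 counts per library (exact 95% limit 26.6-fold). *Vegfc* had 122 and 12 UMIs (24.0 and 6.20 CPM, -1.37, -1.87 to -0.83). The Notch genes *Notch4* (45 and 1) and *Dll4* (42 and 1) had ratios PBS over anti–PD-1 of 17.2 (2.93 to 693) and 16.0 (2.72 to 648), and *Vegfd*, a relative of *Vegfc*, had 30 and 1 UMIs, 11.4 (1.90 to 467). *Esm1* was thus lower in the tumor/biliary class of the anti–PD-1 library, while in endothelial cells it had 182 and 154 CPM (-0.24, -0.58 to 0.09). These genes are not given by sex here. Under PBS 369 tumor/biliary cells had *Xist* and 56 had Y-linked UMIs. The part of sex, which moved with *Flt1* in this class, was not tested for them.

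In CAFs 1 of 15 was higher, the semaphorin *Sema3c* (39.99 and 97.5 CPM, 1.19, 0.81 to 1.57), and 2 were lower. These were *Esm1* with 26 and 0 UMIs, at least 3.45-fold lower against that floor (exact 95% limit 2.61-fold), and *Ptprb*, the phosphatase that acts on TIE2, with 140 and 24 UMIs (54.9 and 23.6 CPM, -1.06). *Angpt1*, which mural cells secrete, had 95 and 20 UMIs there (37.2 and 19.7 CPM, -0.77, -1.37 to -0.18) and *Sema3f* 50 and 11 (-0.64). Endothelial and CAF values of *Angpt1* thus lay in opposite directions, and the summed CAF markers in endothelial cells were at 118 and 371 CPM, a movement whose part was not tested.

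In immune classes the pathway genes were low. Of those measured, 1 of 13 was lower in T cells (*Ptprb*, 11.8 and 1.97 CPM, -1.26), 1 of 5 in NK cells (*Ptprb*, with 19 and 3 UMIs), 1 of 4 in B cells (*Ptprb*, 25.7 and 4.602 CPM, -1.68) and 2 of 7 in neutrophils (*Dll4*, with 18 and 3 UMIs, and *Ptprb*, 16.5 and 5.51 CPM, -1.03), with 0 higher in each. None of 17 passed 2-fold in monocytes/macrophages, of 10 in Kupffer cells, of 3 in dendritic cells and of 2 in plasma cells, in either direction. In monocytes/macrophages the semaphorin receptors *Nrp2* (47.8 and 26.2 CPM, -0.76) and *Plxnd1* (62.7 and 36.4 CPM, -0.71) stood beside *Ptprb* (6.06 and 1.93 CPM, -0.67), whose ratio PBS over anti–PD-1 with no pseudocount was 3.14 (2.01 to 5.13). Over all kept cells 9 of 21 were lower and 0 higher.

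Endothelial markers outside the endothelial class moved with these falls. The 12 endothelial markers summed to 39.0 to 598 CPM in the 11 other classes of the PBS library and to 20.4 to 496 CPM in those of the anti–PD-1 library, lower in 8 classes beyond counting error and higher in 0. In T, B, NK and plasma cells *Kdr*, *Tek* and *Tie1* were at 4.599 CPM or less, and the part of endothelial RNA in these values was not tested. *Flt1* under PBS was at 9.38 to 30.1 CPM in NK, B and plasma cells. This was 1.18% of the endothelial level in NK cells and 1.70% in B cells, where the endothelial markers were at 1.41% and 1.87% of theirs. In plasma cells it was 3.79% against 0.457%, but 38 of those 49 *Flt1* UMIs were in 1 cell. The summed Kupffer markers, 8 genes, were higher in 10 of 11 other classes. The monocyte/macrophage markers, 11 genes, were lower in 7 of 11 and higher in 3, and fell within monocytes/macrophages from 75795 to 51556 CPM, while *Vegfa* rose there.

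Beside the members, 12 of 12 genes of the interferon-γ response were higher in endothelial cells (median log2 2.32), 12 of 12 in tumor/biliary cells (2.47), 11 in monocytes/macrophages (1.58), 10 in Kupffer cells (1.63), 10 in neutrophils (1.79) and 9 in CAFs (1.45). In dendritic cells 6 were higher (1.00), in plasma cells 5 (0.80), and in T, NK and B cells 2, 2 and 3, while in pDCs 0 of 6 measured were (-0.02). Of 10 inhibitors of angiogenesis 9 were measured in monocytes/macrophages, with 0 lower and 2 higher. These were *Thbs1*, thrombospondin-1 (102 and 460 CPM, 2.12), and *Cxcl10*, an interferon-induced chemokine that the list above also holds (90.4 and 448 CPM, 2.25). In neutrophils 3 were higher, among them *Thbs1* (297 and 1833 CPM, 2.61), and 2 lower. In endothelial cells 1 of 8 was higher, *Cxcl10* (55.6 and 742 CPM, 3.62). CAFs had 3 higher and 2 lower of 9. In tumor/biliary, Kupffer and dendritic cells 2 were higher and 0 lower. T cells had 2 higher and 1 lower, NK and plasma cells 2 and 2 each, B cells 1 and 2, and pDCs 0 and 1.

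Likeness of patterns over the classes set the members apart. Pearson's r of log2(CPM + 5) over 24 class sums, 12 classes in 2 libraries, was taken against 15215 genes. The points share libraries and depth, so r is a description only. *Tie1* was most like *Robo4* (1.00), *Pcdh17* (1.00), *Cyp26b1*, *Wnt9b* and *Ccm2l* (0.99 each), and *Tek* most like *Fgd5*, *Ramp2*, *Csgalnact1*, *Jam2* and *Mest* (0.99 each). *Kdr* was most like *Clec4g*, *Dll4*, *Slc24a5*, *Gpr182* (0.95 each) and *Myct1* (0.94), of which *Clec4g* and *Gpr182* are genes of LSECs. *Flt1* followed *Stc1* and *Inhbb* (0.96 each), *Cavin2*, *C130074G19Rik* (0.95 each) and *Limch1* (0.94). *Angpt2* followed *Hoxb5* (0.99), *Hoxb3os*, *Ccdc9b*, *Tspan18* and *Tmem204* (0.98 each).

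*Pgf* was most like *Gucy1b1*, *Ptn* (0.95 each), *Kdelr3*, *Ndrg2* and *Wfdc1* (0.94 each). *Nrp1* was less close to any gene, with *Arsa* and *Eng* (0.83 each), *Hotairm1* (0.82), *Nrp2* (0.80) and *Emilin1* (0.79). *Vegfb* was nearest to *Tmem242* (0.91), *Mesd*, *Rxylt1* (0.89 each), *Slc25a4* (0.88) and *Eri3* (0.87). *Vegfa* had the lowest leading value, *Cdkn1a* (0.77), then *Pnliprp1*, *Mpo* (0.77 and 0.75), *Phlda1* (0.73) and *Nupr1* (0.72). Between members r was 0.93 for *Tek* and *Tie1*, 0.94 for *Angpt2* and *Tek*, and 0.92 for *Kdr* and *Tie1*. *Vegfa* had r between -0.10 (*Nrp1*) and 0.30 (*Pgf*) with every other member.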

How the data were processed

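The authors deposited 1 table of UMI counts for each library, genes by barcodes, not normalized, and the count tables were used as deposited. Per the labels, Singleron GEXSCOPE libraries were mapped to mm10, and the submitters' processing notes name Seurat 4.3. The software version of the counting, the annotation and the treatment of strand and of shared reads are not given in the sources used here. The lowest barcode had 536 and 579 UMIs, total depth was 121713441 and 100807037 UMIs, and 80.1% and 84.1% of barcodes passed the limits of 500 to 5000 genes and 10% mitochondrial UMIs. The depth of a class sets the precision, which the intervals beside each value give.

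A cell was put in a class with at least 2 of 6 gate markers and a lead of 1 over every other class. Kupffer cells needed 4 markers, and cells of the monocyte/macrophage class at most 2. The members, marker genes and lists (HIF targets, LSEC, continuous and lymphatic endothelium, tip cell, angiogenesis inhibitors, early response and heat shock, interferon-γ, other pathway genes) were chosen with earlier results of these data known. The scoring rule of the gate, the Kupffer split, the LSEC and continuous gates, the T-cell and macrophage subsets and the description by UMIs per cell were set after seeing these data. No doublet caller was run: 23.5% and 34.5% of cells in a class had at least 2 gate markers of a second class, and were left out in an alternative. Of the barcodes, 219 occur in both libraries, 145 of them kept. Cells in no class were 14.0% and 16.4%, and 4 gated classes under 50 cells in a library (mesothelial, hepatocyte, acinar, basophil/mast) were not used.

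UMIs were summed per library and class. CPM intervals are exact Poisson, shares exact binomial (Clopper-Pearson), and ratios, at a pseudocount of 5 CPM, come from the exact conditional binomial, all at 95%. Named were all 9 members, the 5 measured pathway genes with the largest ratio per class and the 5 genes most like each member. Genes named from other lists were chosen after their values were seen. Gene IDs were matched to the GENCODE annotation of GRCm38 (32445 of 32589). Scripts were tested on simulated data and used Python 3.11.15, numpy 2.4.6, scipy 1.17.1, pandas 2.3.3 and matplotlib 3.10.9. Alternatives were another pseudocount, median-ratio scaling, other cell limits, a stricter gate, cells of a second class left out, Y-linked cells alone, a minimum of 100 UMIs and, added after seeing the data, a wider tumor gate and the cell with the most UMIs of a gene left out.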

Additional observations from a re-analysis of the deposited data

Results flagged for a closer look

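*Flt1* had ratios of opposite sign between classes with both intervals off 0. The log2 ratio was 0.49 in monocytes/macrophages, where the thinned share of cells with an *Flt1* UMI was 1.25% and 1.02%. It was -2.60 in plasma cells, where 38 of 49 UMIs of the PBS library were in 1 cell. *Tek* also had such ratios, at 1.22 in CAFs and -0.30 in T cells. In T cells *Tek* had 22 and 10 UMIs, of which 6 and 5 were in 1 cell. The T-cell level of *Tek* was 0.435% and 0.138% of the endothelial level, beside 0.867% and 0.837% for the endothelial markers. Neither difference between classes was tested, since each class has 1 library per group.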

How the results depend on the processing

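With 1 library per group no value has a replicate check, and animal, sex, digestion and antibody cannot be told apart. No paired analysis was possible because each group has 1 library. No value past 2-fold changed sign under the alternatives run on classes of at least 50 cells. Among the fewer Y-linked endothelial cells *Angpt2* did, at 1.89 (-0.09 to 2.97) against -1.13. The log2 ratio of *Vegfa* in monocytes/macrophages (2.73) was 3.00 with a pseudocount of 1 CPM, 2.90 with median-ratio scaling and 2.90 with the stricter gate. Over all cells *Vegfa* (1.26) was 1.42 with a pseudocount of 1, 1.48 with median-ratio scaling, 0.90 without the upper limit on genes, 1.12 at 20% mitochondrial UMIs and 1.51 in Y-linked cells. *Kdr* over all cells (-1.82) was -2.24 and -1.68 with that pseudocount and scaling, -1.70 without the upper limit and -1.29 in Y-linked cells, and in endothelial cells (-0.90) it stayed within the interval of -1.08 to -0.72 under the alternatives run, but was -0.61 (-0.92 to -0.30) between the 34 and 45 Y-linked cells. The endothelial share of the PBS library (3.46%) was 2.85% with the stricter gate, 2.94% with second-class cells left out and 2.30% in Y-linked cells, and that of the anti–PD-1 library (0.648%) was 0.471% with the stricter gate. At a minimum of 100 UMIs the endothelial class had 147 genes higher and 143 lower, against 331 and 440. Of the 21 member values past 2-fold, 16 stayed past it without the upper limit, 19 at 20% mitochondrial UMIs, 20 at 200 genes and with median-ratio scaling, and 21 at a pseudocount of 1. With the cell of the most UMIs left out of each library 20 did, *Tek* in CAFs falling to 0.98. Of the 16 that could be recomputed in classes, 14 stayed with second-class cells left out and 11 with the stricter gate, and 10 of 14 in Y-linked cells. With the wider tumor gate 3 of 3 stayed. Median-ratio scaling takes away a median log2 ratio of all genes between -0.37 (neutrophils) and -0.01 (CAFs), and so raises ratios. Fewer than 50 cells in a class, as for endothelial Y-linked cells, limit what depth can show.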

Other observations

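Cells in no class held 28.98% and 28.8% of all *Pgf* UMIs, a higher share than any named class (under anti–PD-1 within counting error of CAFs, 23.4%), and 16.5% and 23.4% of those of *Vegfa*. They had 173 and 32 *Pgf* UMIs (23.2 and 3.09 CPM), 278 and 139 *Flt1* UMIs (37.3 and 13.4 CPM) and 546 and 521 *Nrp1* UMIs (73.3 and 50.3 CPM). In tumor/biliary cells the HIF target *Car9*, a carbonic anhydrase, was at 45.3 and 14.5 CPM (230 and 28 UMIs, log2 -1.37), while *Vegfa* there was at 71.9 and 94.0 CPM. In CAFs *Adm*, the vasodilator adrenomedullin, was at 26.7 and 70.9 CPM (68 and 72 UMIs, 1.26). *Nrp1* was the same to within counting error between the sexes of the PBS library in T cells (88.0 CPM with *Xist*, 86.9 CPM with Y-linked UMIs) and in monocytes/macrophages (105 and 113 CPM).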
